A study of Mus musculus with 6 samples.

Results

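The lipoxygenase and leukotriene genes described here are the 10 genes Alox5, Alox5ap, Lta4h, Ltc4s, Ltb4r1, Cysltr1, Dpep1, Dpep2, Alox12, and Alox15. They were taken as every non-control probe of the array whose gene name is one of these symbols, which gave 14 of 56605 probes, or 10 of 37325 genes. Of these genes, 6 had 1 probe and 4 had 2 probes. A probe entered the comparison when the scanner software's detection p was under 0.05 on at least 1 array, and 13 of the 14 probes did. The exception was a probe of Dpep2.

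Leukotrienes are lipid mediators of inflammation made from arachidonic acid, mostly by leukocytes. 5-Lipoxygenase (Alox5), which is handed arachidonic acid by its membrane partner (Alox5ap), forms leukotriene A4, which leukotriene A4 hydrolase (Lta4h) turns into the neutrophil attractant leukotriene B4 and leukotriene C4 synthase (Ltc4s) conjugates with glutathione. Membrane dipeptidases trim the glutathione conjugates further, and receptors on target cells, among them Ltb4r1 and Cysltr1, receive the products. Lipoxygenases of the other positional types, Alox12 and Alox15, make hydroxylated fatty acids outside this route, and Dpep1 is also a long-known enzyme of the proximal tubule brush border.

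The question was how the kidney transcripts of this route differ in mice that lack selenium-binding protein 1. Left kidneys from 3 WT mice and 3 Selenbp1-KO mice were compared on 1 one-color Agilent array each. All were male, labeled as C57BL/6J of 8 weeks, and had been fasted for 20 h. The knockout line was made in earlier work, and neither the deleted part of the gene nor a littermate origin of the WT mice, which came from a supplier, is given in the sources used here. Selenbp1 itself differed by a log2 of −2.96 (standard error 0.098, adjusted p = 0.0021 from limma), so all 6 labels matched the targeted gene. The kidney labels were borne out by proximal tubule markers, 7 of 7 of which were well above background on all arrays. All arrays lay on 1 slide, with WT replicates 2 and 3 in its first row and WT replicate 4 and the 3 Selenbp1-KO replicates in its second. The 75th percentile of the signal ranged from 477 to 751 between arrays, and from 51.8% to 55.5% of spots were well above background. Levels are given as the log2 of the processed signal minus the log2 of the array's own 75th percentile, and differences are Selenbp1-KO minus WT on this scale. The number of arrays limits the precision, and levels of different probes cannot be set against each other.

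The probes that carry the results are short stretches of these transcripts, and their identity decides what was measured. The first 30 of their 60 bases are shown, in lower case throughout because no part of them is singled out, for the 5 probes that passed the test and for both Alox12 probes, which gave different pictures of 1 gene.
Alox5, NM_009662 from base 2530: tttatgcttcctccaattgcttgcatagag
Alox5ap, NM_009663 from base 577: agagacgcatcataacgcaatgccgcgaag
Alox5ap, AK075967 from base 798: cttgtaatcagacacgtgttttcctaaaat
Ltc4s, NM_008521 from base 530: caaaacgctggggtgcccgcccccgaatcc
Ltb4r1, NM_008519 from base 1237: cctgacccacttctgtacctggaggagaac
Alox12, NM_007440 from base 1090: tcttggctaagatctgggtccgaaattcag
Alox12, NM_007440 from base 2173: acactccacattagtattctaactacaggg
The positions count from the start of the named transcript, as the scanner files give them. Whether these bases are coding or untranslated was not checked, because no annotation of mm9, the build of the probe coordinates, was used.

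Alox5, Alox5ap, Ltc4s, and Ltb4r1, 4 of the 10 genes, were higher in the knockout on these arrays. The criterion was that of the study's methods, p under 0.05 before any adjustment, and a probe that meets it is said to pass. They are 3 components of leukotriene synthesis and 1 receptor, with differences of 0.37 to 0.97 by the brightest probe of each gene. No member passed as lower. Counted by probe, 5 of 13 passed (38.5%), against 7.98% of all 56097 probes tested, of which 6.47% were higher and 1.51% lower. Counted by gene, 4 of 10 passed (40%), against 8.00% of 37028 genes, of which 6.87% were higher and 1.13% lower. The members were chosen with earlier results of these data known, so these shares are a description and no test of the set. With p-values adjusted by Benjamini–Hochberg over the whole table, 0 of 13 member probes and 0.00357% of all probes had an adjusted p under 0.05. The adjusted p from limma was 0.279 for each of the 5 probes that passed, the lowest among the members. From these same arrays, the paper lists Alox5 and Ltb4r1 among the genes raised in the knockout, so these are not separate findings. The paper also measured lipoxygenase mRNA by real-time RT-PCR and concluded that Alox was not affected. Its text does not say which lipoxygenase genes that covers.

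The whole arrays leaned the same way, and this bears on how the member differences read. The median difference of all probes was 0.11, and it was 0.38 in the 24333 probes that were well above background on no array. It was −0.06 in the 4946 probes well above background on 1 to 5 arrays, the class of Alox5. It was 0.01 in the 26818 probes well above background on all 6, the class of the Alox5ap, Ltc4s, and Ltb4r1 probes. The 0.11 is thus not the median of the classes to which the probes that passed belong. Relative to the median of all probes, the differences were 0.86 for Alox5, 0.42 and 0.49 for the 2 probes of Alox5ap, 0.26 for Ltc4s, and 0.35 for Ltb4r1. The median difference was 0.11 over the 13 member probes and 0.24 over the 10 genes, against 0.13 over all genes. Of the 8 member probes well above background on all 6 arrays, 4 passed, against 5.23% of all probes of that class. With quantile normalization, which sets the median of all probes to 0.00 and leaves 2527 higher among 4697 passing probes, in place of 3632 among 4479, the same 5 member probes passed.

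**Figure D1:**
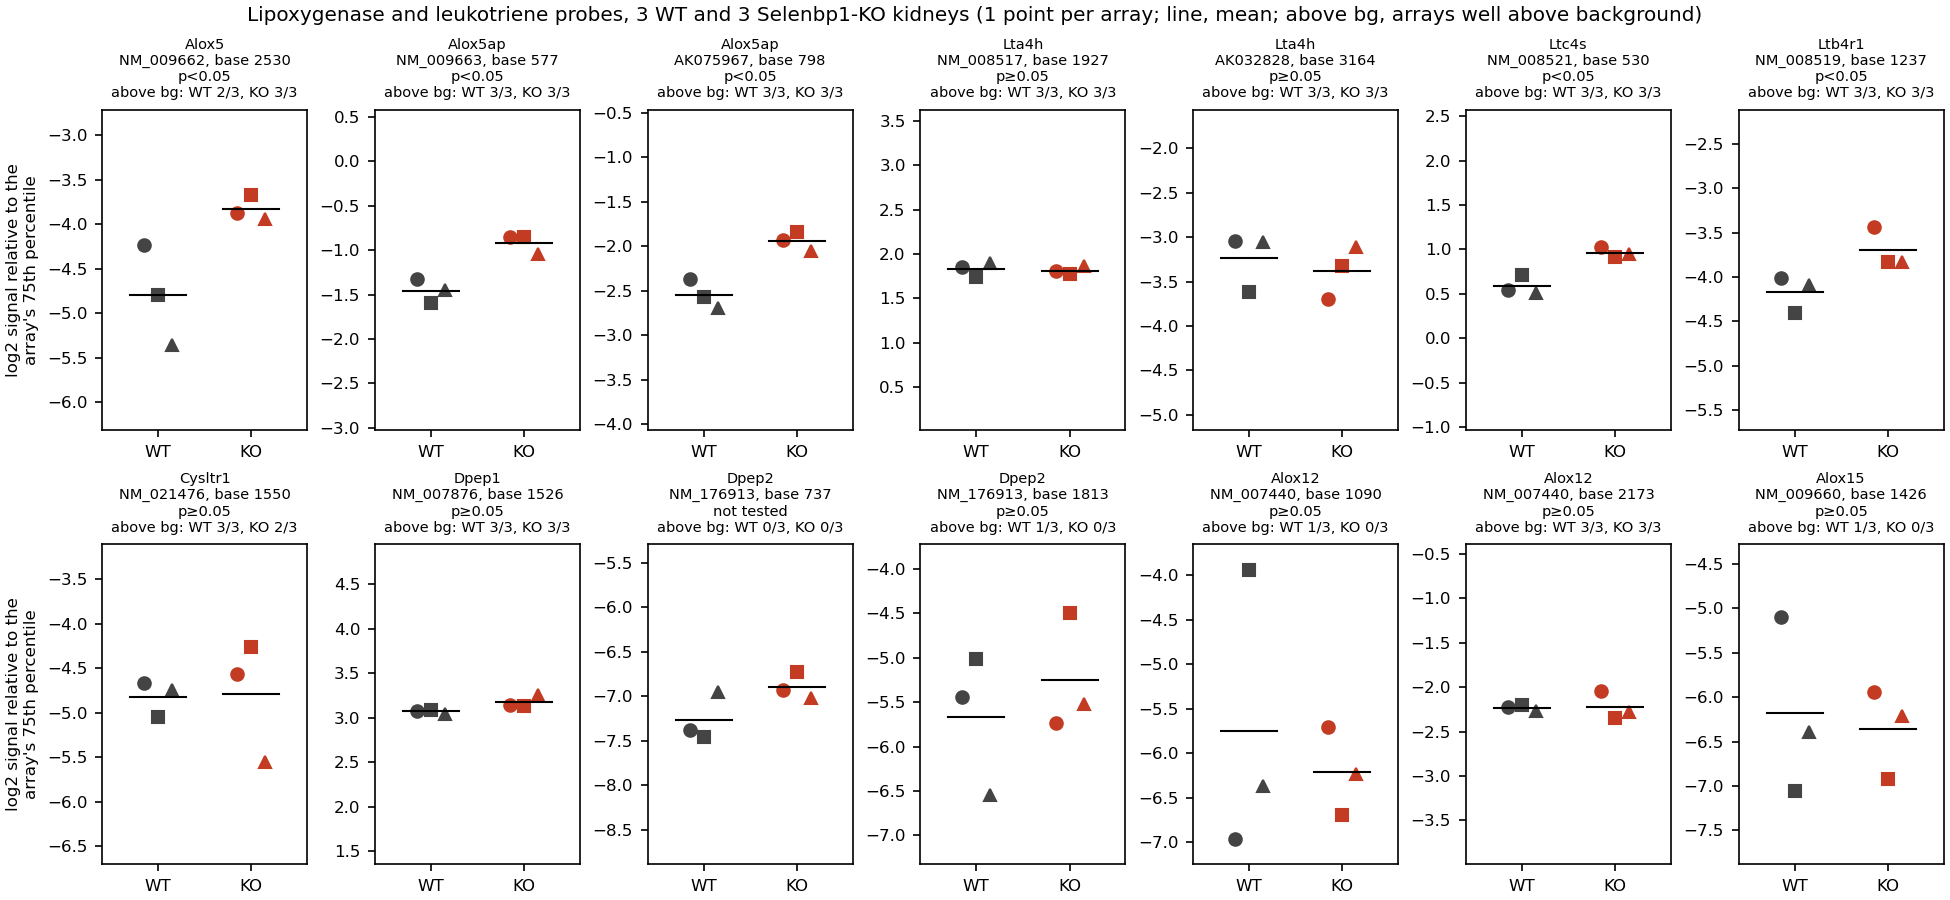
Level of each of the 14 probes on each array, as log2 signal relative to the array's 75th percentile, with WT replicates 2, 3, and 4 in gray and Selenbp1-KO replicates 1, 2, and 3 in red as circle, square, and triangle, and a line at each mean. Panels start at different levels, and the points of the 2 genotypes do not overlap for Alox5, both Alox5ap probes, Ltc4s, Ltb4r1, and Dpep1.

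Alox5, the enzyme that begins the route, showed the largest difference of the 13 member probes tested. Its probe (NM_009662, chr6:116360326-116360385 of mm9, minus strand) had a level of −4.24, −4.80, and −5.36 in WT replicates 2, 3, and 4, and of −3.88, −3.67, and −3.94 in Selenbp1-KO replicates 1, 2, and 3. The genotypes did not overlap, the knockouts lay close together, and the WT arrays were spread widely. The difference was 0.97 (standard error 0.28, 95% confidence interval 0.27 to 1.67), or 1.96-fold. The transcript was dim and well above background on 3 of 3 Selenbp1-KO arrays and on 2 of 3 WT arrays, not on WT replicate 4, which lowers the WT mean. With normexp background correction, the difference was 0.48. Before scaling between arrays, the processed signals were 37.7, 26.9, and 12.7 in WT and 38.5, 37.4, and 38.1 in Selenbp1-KO kidneys, so that WT replicate 2 then fell among the knockouts, and the difference of the unscaled log2 signals, 0.70, did not pass. Without WT replicate 4, the lowest array, the difference was 0.69 and still passed. With the slide row as a block it was 1.53, a value that rests on WT replicate 4 as the sole WT array of the second row.

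Alox5ap, the membrane protein that presents arachidonic acid to 5-lipoxygenase, was read by 2 probes that lie 225 bp apart. The brighter (NM_009663, chr5:150099347-150099406, plus strand) had a level of −1.32, −1.60, and −1.45 in WT and −0.85, −0.85, and −1.05 in the knockout. The difference was 0.54 (standard error 0.12, 95% confidence interval 0.24 to 0.84). The other (AK075967, chr5:150099572-150099631, plus strand) had −2.37, −2.58, and −2.69 in WT and −1.93, −1.84, and −2.05 in the knockout, and differed by 0.60 (standard error 0.13, 95% confidence interval 0.29 to 0.92). In both probes, the 2 genotypes did not overlap and all 6 arrays were well above background. The probes read the same RNA samples, so they are not separate replicates of the difference. The 1.45-fold and 1.52-fold increases differed by less than their confidence intervals.

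**Figure D2:**
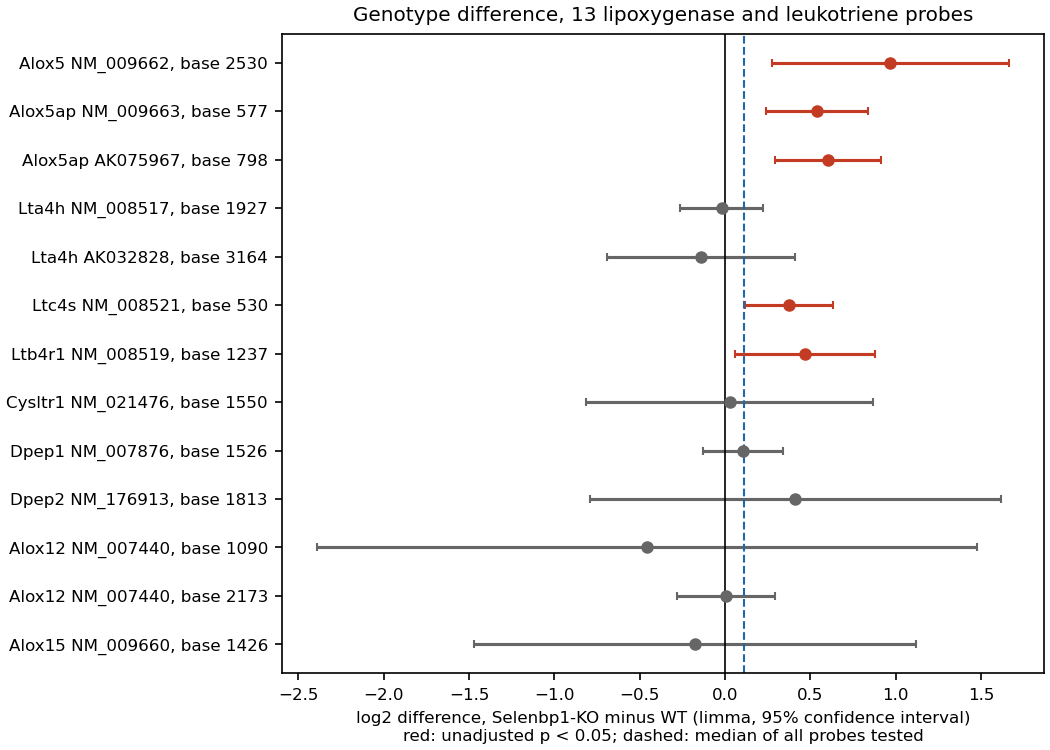
Difference of the 13 probes tested, Selenbp1-KO minus WT, with its 95% confidence interval from limma on a log2 axis. The 5 probes that passed are red and lie to the right of 0, and the dashed line is the median of all probes, 0.11.

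Ltc4s, which conjugates leukotriene A4 with glutathione, had a level of 0.54, 0.71, and 0.51 in WT and 1.02, 0.92, and 0.95 in Selenbp1-KO kidneys (NM_008521, chr11:50049974-50050031, minus strand). The genotypes did not overlap, and the probe was well above background on all arrays. The difference was 0.37 (standard error 0.11, 95% confidence interval 0.11 to 0.63), or 1.30-fold. It did not pass without Selenbp1-KO replicate 1 (0.34), with the replicate number as a block (0.31), or with no scaling between arrays (0.10).

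Lta4h, which makes leukotriene B4 from leukotriene A4, did not pass. Its brighter probe (NM_008517, chr10:92947503-92947562, plus strand) had a level of 1.86, 1.75, and 1.90 in WT and 1.81, 1.77, and 1.86 in Selenbp1-KO kidneys. The genotypes overlapped, and the difference was −0.02 (95% confidence interval −0.26 to 0.22), so the intervals of this probe and of the brighter Alox5ap probe, which starts at 0.24, did not overlap. The difference between these genes was not tested. The second Lta4h probe (AK032828, chr10:92926871-92926930, plus strand), 20.6 kb from the first, differed by −0.14 (95% confidence interval −0.69 to 0.41) with overlapping genotypes, and which Lta4h transcripts it reads is not known.

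Of the 2 receptors, Ltb4r1 passed the criterion and Cysltr1 did not. Ltb4r1, the high-affinity receptor of leukotriene B4 (NM_008519, chr14:56387175-56387234, plus strand), had a level of −4.01, −4.40, and −4.09 in WT and −3.44, −3.83, and −3.83 in Selenbp1-KO kidneys. All 6 arrays were well above background and the genotypes did not overlap. The difference was 0.47 (standard error 0.17, 95% confidence interval 0.06 to 0.88), or 1.38-fold. It did not pass with the trend and robust options of limma (0.47), without WT replicate 3 (0.35), without Selenbp1-KO replicate 1 (0.34), with the slide row as a block (0.39), with the replicate block (0.38), or with no scaling (0.20).

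Cysltr1, a receptor of the cysteinyl leukotrienes (NM_021476, chrX:103773217-103773276, minus strand), had a level of −4.66, −5.05, and −4.74 in WT and −4.57, −4.26, and −5.55 in Selenbp1-KO kidneys. Selenbp1-KO replicate 3 was the lowest array and the only one of the 6 on which the probe was not well above background. The difference was 0.03 (95% confidence interval −0.81 to 0.87), an interval that also holds the differences of Alox5ap, Ltc4s, and Ltb4r1.

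The dipeptidases, which take the glycine from leukotriene D4, did not pass the criterion. Dpep1 (NM_007876, chr8:125724996-125725055, plus strand) had a level of 3.08, 3.09, and 3.05 in WT and 3.15, 3.13, and 3.26 in Selenbp1-KO kidneys. The genotypes did not overlap, but the difference was 0.11 (95% confidence interval −0.13 to 0.34), an interval that includes 0. The median was 0.11 over all probes and 0.01 over probes well above background on all 6 arrays, the class of Dpep1. The genotypes did overlap with another background correction (normexp). With Dpep1, 6 of 13 member probes had genotypes that did not overlap, against 13.3% of all probes, and 5 of 10 member genes, against 14.1% of all genes.

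Dpep2, a relative of Dpep1 with the same substrate, was near or below background. Its probe from base 1813 (NM_176913, chr8:108508850-108508909, minus strand) had a level of −5.44, −5.01, and −6.55 in WT and −5.74, −4.50, and −5.53 in Selenbp1-KO kidneys and was well above background on 1 WT array. The difference was 0.41 (95% confidence interval −0.79 to 1.62), and the genotypes overlapped. The probe from base 737 (chr8:108513385-108513444) had processed signals of 4.21 to 4.64 on the 6 arrays and was not tested.

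Neither of the other lipoxygenases passed. Alox12, the platelet-type enzyme, was read by 2 probes 7.9 kb apart that behaved differently. The probe from base 2173 (NM_007440, chr11:70055715-70055774, minus strand) was well above background on all 6 arrays, with a level of −2.22, −2.20, and −2.27 in WT and −2.04, −2.34, and −2.28 in Selenbp1-KO kidneys, and a difference of 0.01 (95% confidence interval −0.28 to 0.29). The probe from base 1090 (chr11:70063629-70063688) was well above background on 1 array, WT replicate 3, where its processed signal was 49.0 against 4.6 to 10.8 on the other 5. With that array its difference was −0.46 (95% confidence interval −2.39 to 1.48), and without it 0.45. The brighter probe did not stand apart on WT replicate 3.

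Alox15 (NM_009660, chr11:70159115-70159339, minus strand, over a span of 225 bp) showed the same kind of pattern in another array. Its processed signal was 20.7 in WT replicate 2, which alone was well above background, and 3.93 to 9.19 elsewhere. The difference was −0.17 (95% confidence interval −1.47 to 1.12), and 0.37 without WT replicate 2. No statement on the direction of Alox15 can be drawn from these arrays.

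**Figure D3:**
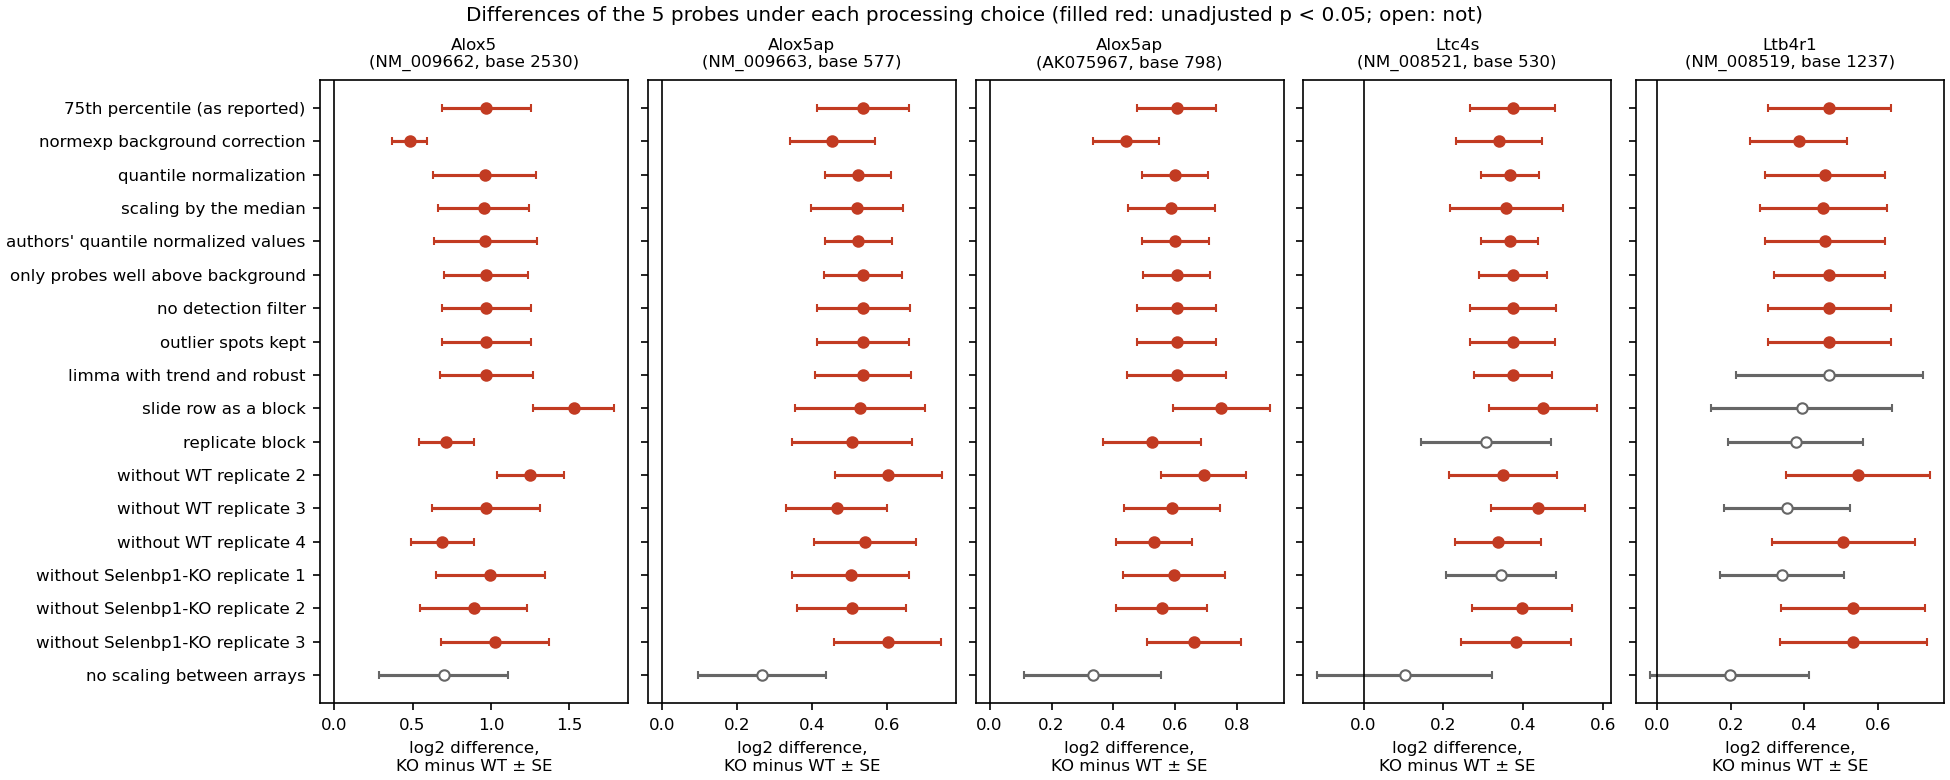
Difference, Selenbp1-KO minus WT on the log2 scale, ± standard error of the 5 probes that passed, as reported (top) and under 17 other choices of processing or samples, where filled red points passed and open points did not. Every point is right of 0, and all 5 are open under no scaling between arrays, the bottom line.

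The 5 differences kept their sign under all 17 other choices of processing and samples that were tried, but not all calls held. The other detection filters, the outlier spots kept, and the trend and robust options leave these differences unchanged, so their sign was fixed there. Quantile normalization and the authors' quantile normalized table gave nearly the same values. The 17 choices are therefore not independent checks. Alox5 and both Alox5ap probes passed in 16 of 17, Ltc4s in 14, and Ltb4r1 in 11. Adjusted p-values from limma ranged from 0.0795 to 0.555 for Alox5 and from 0.0395 to 0.672 for the brighter Alox5ap probe, whose lowest value came with the trend and robust options. The choice under which none of the 5 passed was to leave the arrays unscaled, where WT replicates 2 and 3 are brighter over the whole array and the median difference of all probes was −0.16. This choice was added after the data were seen. Alox5 ranged from 0.48, with normexp, to 1.53, with the slide row as a block, which compares the knockouts with 1 WT array. With the replicate number as a block, 3 of 13 member probes passed (23.1%), those of Alox5 and Alox5ap, below the 32.9% of all probes that passed under it.

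The remaining genes of the pathway were read from a list of 27, of which 26 were tested and Dpep3 was not. Of the 26, 1 passed the criterion and was higher, 19 had a difference above 0 and 7 below it, against 68.4% of all genes above 0, and the median difference was 0.06. This share, 3.85%, was below the 8.00% of all genes. The gene that passed was Gpx4, the selenoprotein peroxidase that reduces lipid hydroperoxides and so limits lipoxygenase activity. Gpx4 (NM_001037741) had a level of 7.13, 7.16, and 7.32 in WT and 7.59, 7.64, and 7.51 in Selenbp1-KO kidneys, with no overlap. The difference was 0.38 (standard error 0.11, 95% confidence interval 0.12 to 0.64, adjusted p = 0.279 from limma). It passed in 14 of 17 alternatives, with adjusted p-values from 0.000962 to 0.845, and not with the slide row as a block (0.26), the replicate block (0.43), or no scaling (0.11).

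The parts of the pathway around the member genes were otherwise without a call. Of the 3 genes grouped as arachidonate release and 5-lipoxygenase partners, those beside Gpx4 were the phospholipase Pla2g4a, with a difference of −0.03, and the 5-lipoxygenase binding protein Cotl1, with 0.04. Of the 7 genes for leukotriene C4 synthesis, export, and glutamyl removal, 5 differed upward and 2 downward, none past the criterion, and the brightest, the microsomal glutathione transferase Mgst1, differed by 0.04. All 6 genes of leukotriene B4 inactivation had differences above 0, from 0.01 to 0.51, and none passed. Their median of 0.12 was close to the 0.13 of all genes. The brightest of these, the omega-hydroxylase Cyp4f13, differed by 0.02.

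Among 6 further receptors for leukotrienes and related lipids, none passed and 3 were not well above background on any array, including the second receptors Ltb4r2 and Cysltr2. The brightest, Oxgr1, a receptor described for both 2-oxoglutarate and leukotriene E4, differed by 0.07. Of 4 further lipoxygenases, 3 were not well above background on any array. The brightest, the epidermal Alox12b, was well above background on 2 WT arrays only and differed by −0.45 (95% confidence interval −1.36 to 0.46).

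**Figure D4:**
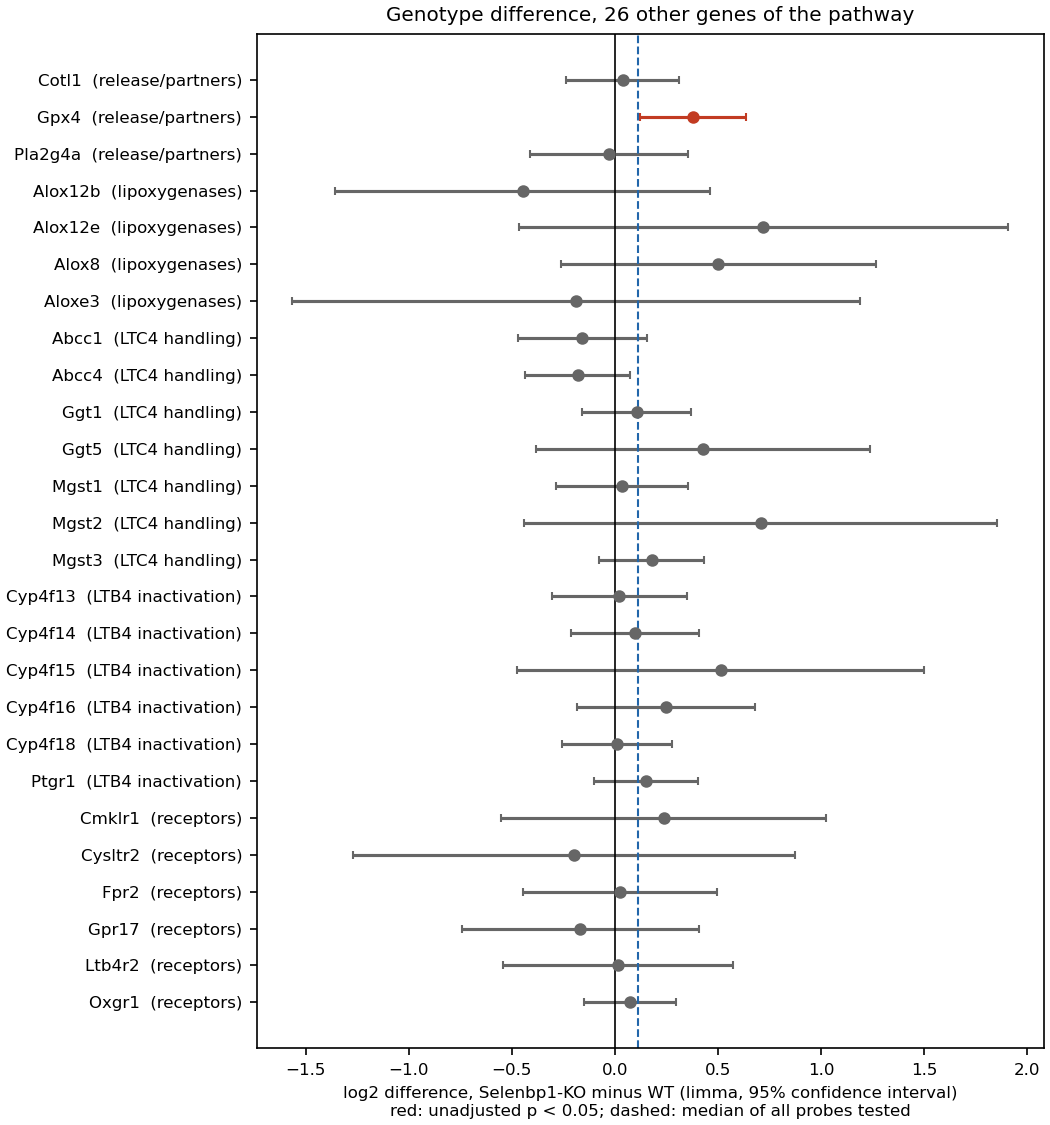
Difference of the 26 other pathway genes by their brightest probe, Selenbp1-KO minus WT, with the 95% confidence interval from limma on a log2 axis. Gpx4, the gene that passed, is red, and the widest intervals are those of Aloxe3, Alox12e, and Mgst2.

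In whole kidney, a difference in the number of cells of a type and a difference in RNA per cell cannot be told apart, and several members are known as leukocyte genes. Macrophage markers moved with them: 7 of 11 passed as higher and none as lower, against 6.87% and 1.13% of all genes. Among those that passed were C1qc by 0.60 and Lyz2 by 0.74. Adgre1 (0.36), Csf1r (0.17), Cd14 (0.13), and Itgam, which was lower (−0.10), did not pass. The summed level of all 11 was 17.4 to 21.7 in WT and 23.6 to 26.9 in Selenbp1-KO kidneys, with no overlap. These sums are of the linear signal relative to the array's 75th percentile. Platelet markers were also higher, 2 of 5 passing (Pf4 by 1.06 and Ppbp by 1.03), with sums of 0.43 to 0.66 in WT and 0.68 to 1.20 in Selenbp1-KO kidneys. Each non-overlap of the sums rested on 1 gene, found after the values were seen. Without Lyz2 the macrophage sums were 12.7 to 15.9 in WT and 15.2 to 17.8 in the knockout, and without Pf4 the platelet sums were 0.16 to 0.23 and 0.21 to 0.38, overlapping in both. The part of these cells in the differences of Alox5, Alox5ap, Ltc4s, and Ltb4r1 was not tested.

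Fewer markers of other leukotriene-producing cells passed. Of 9 neutrophil markers none passed, and 5, among them the granule gene Mpo, were not well above background on any array. The sums, 2.92 to 3.48 in WT and 3.50 to 3.86 in Selenbp1-KO kidneys, did not overlap, but without Ly6g they were 1.11 to 1.35 and 1.16 to 1.38 and did. None of 7 mast cell markers passed, and 3, among them the receptor chains Fcer1a and Ms4a2, were not well above background on any array. The same held for all 4 eosinophil markers. Among 5 pan-leukocyte markers, Cd52 (0.54) and Cd53 (0.69, well above background on no array) passed as higher, and the sums overlapped. Coro1a (0.34), Laptm5 (0.07), and Ptprc, which was lower (−0.16), did not pass. Of 5 T cell markers Cd3e passed, and none of 4 B cell markers did, with overlapping sums in both. No marker of the proximal tubule, the distal nephron and collecting duct, or the podocyte passed.

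**Figure D5:**
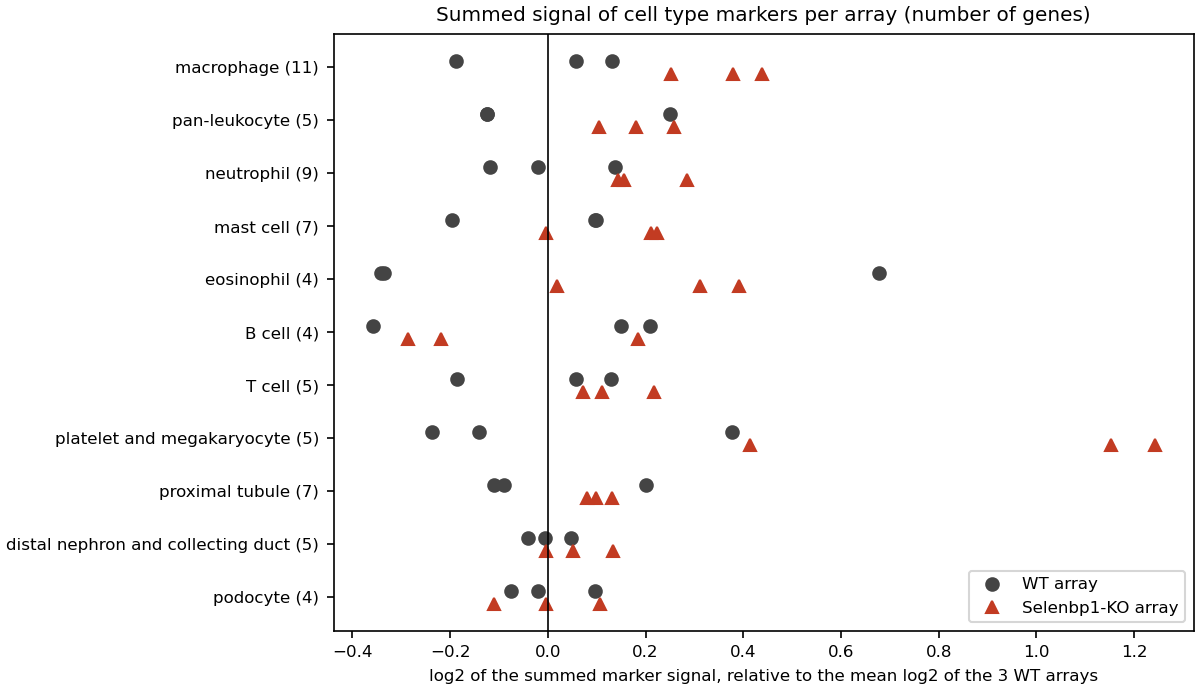
Summed marker signal on each array for 11 cell types, as log2 relative to the WT mean, with the number of marker genes in brackets. WT circles and Selenbp1-KO triangles do not overlap for macrophage, neutrophil, and platelet markers, and they overlap for the other 8 lists.

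The genes whose level followed Alox5 and Alox5ap most closely over the 6 arrays were sought among 18364 genes well above background on every array. For Alox5 they were Slit3 (Pearson's r = 0.995), the transcript AK085734 (0.993), and LOC102640779 (0.990). For the brighter Alox5ap probe they were Csf2rb, the common beta chain of myeloid cytokine receptors (0.997), Pigx (0.994), and Mpnd (0.993). These correlations pool both genotypes, so the genotype difference of Alox5 and Alox5ap enters them, and each gene named here was higher in the knockout. They are also the highest of 18364 genes over only 6 arrays. The arrays share 1 slide and each array's genes share its scaling, so these correlations are a description.

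The sequence before the transcription start was available for 6 of the 10 members in the set of promoter sequences used here (GRCm38.p6). It is shown for the 3 of them that passed as higher in Selenbp1-KO kidneys. Alox5ap, Cysltr1, Dpep2, and Alox15 are not among the 6. The 250 bases before the start were searched on both strands for the GC box, GGGCGG, bound by Sp1, and for GAGGAA, the core of sites of the myeloid factor PU.1. Matches are in capitals, as written on the gene's strand, so that a match on the other strand reads CCGCCC or TTCCTC, and no 2 matches overlap.
Alox5, chr6:116461179-116461428, minus strand: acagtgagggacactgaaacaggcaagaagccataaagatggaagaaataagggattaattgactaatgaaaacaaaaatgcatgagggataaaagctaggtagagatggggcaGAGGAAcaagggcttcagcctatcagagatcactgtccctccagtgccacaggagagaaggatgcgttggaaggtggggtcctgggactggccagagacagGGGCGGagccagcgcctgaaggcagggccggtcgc
Ltc4s, chr11:50238533-50238782, minus strand: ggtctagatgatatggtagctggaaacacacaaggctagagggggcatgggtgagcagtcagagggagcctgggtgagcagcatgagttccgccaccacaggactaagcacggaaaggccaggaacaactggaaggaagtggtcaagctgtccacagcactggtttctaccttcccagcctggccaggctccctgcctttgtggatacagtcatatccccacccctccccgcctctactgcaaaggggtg
Ltb4r1, chr14:55765712-55765961, plus strand: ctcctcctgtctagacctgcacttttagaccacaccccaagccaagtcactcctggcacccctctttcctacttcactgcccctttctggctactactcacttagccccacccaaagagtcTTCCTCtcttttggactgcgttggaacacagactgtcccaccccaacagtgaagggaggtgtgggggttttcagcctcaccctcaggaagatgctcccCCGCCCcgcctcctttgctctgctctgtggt
The windows of Alox5 and Ltb4r1 each held 1 of both motifs, and that of Ltc4s held neither. Of the members that did not pass, Lta4h held the PU.1 core once, Alox12 the GC box 2 times and the PU.1 core once, and Dpep1 neither. Over all 32851 windows of the same length, 32.7% held the GC box and 23.3% the PU.1 core. These matches describe the letters and not binding, which was not measured.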

How the data were processed

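Kidney RNA of 3 WT and 3 Selenbp1-KO mice was labeled with Cy3 and hybridized to 1 Agilent array each. The authors deposited the Feature Extraction output of each array, in which the intensities used are linear, background-subtracted, and detrended, with a detection p-value and flags per spot. They also deposited a table of intensities, 1 per probe, that were quantile normalized. Here, log2 of the processed signal was set relative to the array's 75th percentile, flagged spots were dropped, and spots of a probe were averaged. Every probe that reached a detection p under 0.05 on 1 array or more was compared with limma (version 3.58.1, R version 4.3.3, two-sided), with Benjamini–Hochberg adjustment over all 56097. Names came from RefSeq accessions, and the file's name was kept elsewhere. A gene was represented by its brightest probe. Nothing in the labels says more of the replicates than that they are separate samples, so p-values measure the spread between these samples. The members and all gene lists were chosen with earlier results of these data known. Named genes are all members, pathway genes that passed and the brightest of each pathway subgroup, examples of marker lists, and the 3 genes most alike in pattern to Alox5 and Alox5ap. The remaining pathway genes named were chosen after their values were seen. Alternatives were normexp correction (offset 50), quantile and median scaling, the authors' table, other detection filters, outlier spots kept, trend and robust options (statmod version 1.5.0), slide row and replicate number as blocks, leaving out each array, the mean of all probes, and a log2 difference of at least 0.5. The comparison was also run on simulated arrays with independent noise for each probe and no shared effect of array or slide row. Such arrays cannot show how the p-values behave where these effects are present.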

Additional observations from a re-analysis of the deposited data

How the results depend on the processing

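The count of all probes that passed, 4479, moved to 14616 with scaling by the median, 2841 when probes had to be well above background on every array of a genotype, 7536 with trend and robust options, 18430 with the replicate number as a block, and 2799 at a log2 difference of at least 0.5. It ranged from 2024 (3.61%) without WT replicate 2 to 17585 (31.3%) without WT replicate 4. Of all probes tested, 7.98% passed as reported, 11.2% with normexp, 8.37% with quantile normalization, and 8.36% with the authors' table. The share was 26.1% with median scaling, 13.4% with trend and robust options, and 32.9% with the replicate block. It was 4.99% at the log2 limit and 9.01% with no scaling, and the counts that follow are to be read against these shares. The member probes that passed, 5, became 3 with the replicate block, 3 at the log2 limit, 0 with no scaling between arrays, 4 with trend and robust options, and 4 with the slide row as a block, and ranged from 3 without Selenbp1-KO replicate 1 to 5 with 1 array left out. The member genes, 4, became 2, 2, 0, 3, and 3 under these choices and ranged from 2 to 4. The pathway genes, 1, became 2 with normexp, 4 with quantile normalization, 3 with the authors' table, 3 with trend and robust options, 4 with the replicate block, 0 at the log2 limit, and 3, all lower, with no scaling, and ranged from 1 to 3. A count of 4 pathway genes is 15.4% of 26, above the share of all probes with quantile normalization and below it with the replicate block. Replicates 2 and 3 are numbered in both genotypes, and the deviations of like-numbered arrays correlated at 0.17 and 0.19 over 28509 probes. With 2 such pairs the numbers were not taken as a pairing.

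Differences that changed sign belonged to members that did not pass. With normexp, Alox15 was 0.12, the Alox12 probe from base 1090 was 0.094, and the second Lta4h probe was 0.032. The brighter Alox12 probe was −0.0072 with quantile normalization, −0.0093 with median scaling, and −0.0077 with the authors' table. With the slide row as a block, Cysltr1 was −0.047, Alox15 was 0.034, and the dimmer Alox12 probe was 0.15. With the replicate block, Cysltr1 was −0.048, the brighter Alox12 probe −0.10, and the Lta4h probes 0.015 and 0.11. With no scaling, Cysltr1 was −0.24, Dpep1 −0.17, and the brighter Alox12 probe −0.26. With 1 array left out, Alox15 ranged from −0.61 to 0.37, Cysltr1 from −0.24 to 0.41, the dimmer Alox12 probe from −1.06 to 0.45 and the brighter from −0.083 to 0.068, Dpep2 from −0.028 to 0.74, and the Lta4h probes from −0.063 to 0.012 and from −0.33 to 0.022. The cause was not tested. Signal over background limits Alox15, Dpep2, and the dimmer Alox12 probe.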
